A study of Gallus gallus with 10 samples.

Results

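A small group of chicken genes formed a graded series across the sequenced brain tissues, lowest in the natural cerebral cortex (NCC), intermediate in the natural optic tectum (TeO) and highest in the induced optic tectum (iTeO). A smaller group ran the other way. Of 24881 chicken genes, 40 met the rule for one of these patterns, 36 of them rising from NCC over TeO to iTeO and 4 falling. The genes were chosen on CPM, which scales each count to a fixed total of chicken counts per library, averaged over the libraries of each tissue with 0.1 CPM added. A rising gene had an iTeO mean over 2 times the TeO mean and a TeO mean over 2 times the NCC mean, a falling gene had the reverse, and both needed at least 2 CPM in the highest tissue. No library of one tissue could overlap with a library of the next tissue in the series. The levels and both steps therefore chose these genes and are given as a description without a test, and both steps share the TeO libraries.

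All embryos were wild type chickens. The 4 iTeO libraries came from ectopic tissue that formed after pieces of human neuroepithelial cells (NECs) had been grafted into the anterior diencephalon of early embryos, 2 after grafts derived from human embryonic stem cells, named iTeO (ES), and 2 after grafts derived from human induced pluripotent stem cells, named iTeO (iPS). There were 3 libraries of TeO and 3 of NCC, and no diencephalon library was analysed here. Whether a library held tissue of a single embryo or of several, and whether libraries of a group came from separate embryos, is not stated in the sources used here, so p-values measure only the spread between these libraries. The age of the tissue at dissection is not given in the labels. Total RNA was measured in bulk, so that more cells of a type and more RNA per cell cannot be told apart.

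The optic tectum is the dorsal midbrain of birds, a layered structure that receives visual input from the retina. Its territory is set in the embryo by the isthmic organizer, a signalling centre at the border of midbrain and hindbrain that releases FGF8 and WNT proteins. The cerebral cortex arises further forward from the telencephalon, and the diencephalon, which received the grafts, lies between these regions. A gene that is higher in natural tectum than in cortex and higher still in the induced tissue is one for which the induced tissue lies beyond the natural tectum on the axis from cortex to tectum. The deposited table lists genes by Ensembl identifier only, and 0 of the chicken identifiers could be paired with a symbol. No gene function, marker of a tissue or cell type, or sequence is therefore given. The genes were numbered within each direction by the smaller of their steps on the log2 scale, from the largest, and only the first 2 of each direction that reached 5 CPM are given by identifier.

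Depth ran from 7832388 to 11631102 counted reads. All iTeO libraries, at most 10566585, were shallower than all TeO and NCC libraries, at least 10906465. In a library, 3 counts corresponded to between 0.258 and 0.384 CPM. The most counted chicken gene took between 13.3% and 15.2% of chicken counts in iTeO and between 18.5% and 22.0% in TeO and NCC. With TMM scaling, which limits the weight of such genes, the log2 step from TeO to iTeO shifted by -0.20 and that from NCC to TeO by -0.02 before the constant of 0.1 CPM was added, which makes the shift differ slightly between genes. The number of rising genes was then 19, all of them among the 36, and the number of falling genes 7, among them the 4. On TMM scaling 31 of the 36 rising genes kept the full order without overlap, and the median fold of iTeO over TeO was 2.18.

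**Figure D1:**
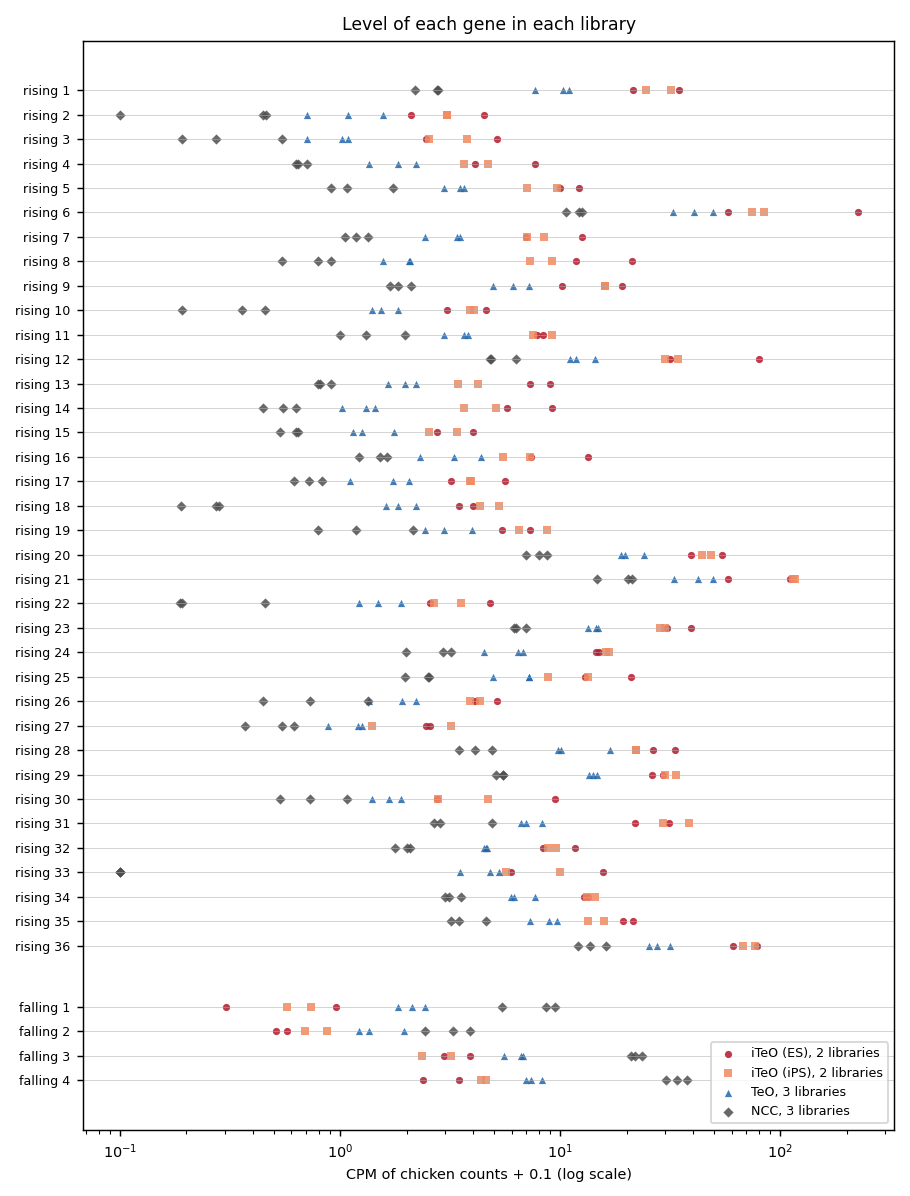
Level of the 36 rising and 4 falling genes in each library, as CPM of chicken counts plus 0.1 on a log axis, with a point for each of the 4 iTeO, 3 TeO and 3 NCC libraries. The lowest level was 0 CPM, for rising gene 33 in all NCC libraries and rising gene 2 in NCC replicate 2. The highest was 224 CPM, for rising gene 6 in iTeO (ES) replicate 1.

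Among rising genes that reached 5 CPM, ENSGALG00000007419 had the largest smaller step and was rising gene 1. The iTeO (ES) libraries held 21.3 and 34.4 CPM and the iTeO (iPS) libraries 31.6 and 24.4 CPM, while TeO held 10.2, 10.9 and 7.57 CPM and NCC held 2.67, 2.65 and 2.08 CPM. Its lowest iTeO library was 1.95 times its highest TeO library, and its lowest TeO library was 2.84 times its highest NCC library. The means were 27.9 ± 6.10 CPM in iTeO (SD, n = 4), 9.56 ± 1.76 in TeO (SD, n = 3) and 2.47 ± 0.338 in NCC (SD, n = 3), or log2 steps of 1.54 from TeO to iTeO and 1.91 from NCC to TeO. The libraries of the 3 tissues were thus well apart for this gene, and iTeO stood 10.9-fold above NCC.

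ENSGALG00000000667, rising gene 5, was lower in level and graded in nearly equal steps. Levels of 9.88 and 12.1 CPM were found for iTeO (ES), 9.60 and 6.96 for iTeO (iPS), 3.54, 3.40 and 2.85 for TeO, and 1.64, 0.973 and 0.812 for NCC. The lowest iTeO library was still 1.97 times the highest TeO library. Its means were 9.63 ± 2.09 CPM in iTeO (SD, n = 4), 3.26 ± 0.363 in TeO (SD, n = 3) and 1.14 ± 0.437 in NCC (SD, n = 3), with a log2 step of 1.53 from TeO to iTeO and of 1.44 from NCC to TeO.

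Most rising genes were of low or moderate level. The iTeO mean was between 2 and 5 CPM for 11 genes, between 5 and 20 CPM for 15 and over 20 CPM for 10. The median level over the 36 genes was 9.36 CPM in iTeO, 3.32 in TeO and 1.30 in NCC. Their summed level was 661 to 858 CPM in iTeO, 271 to 288 CPM in TeO and 103 to 113 CPM in NCC. The highest sum was that of iTeO (ES) replicate 1, in which rising gene 6 alone held 224 CPM, and the other 3 iTeO libraries lay at 661 to 677 CPM.

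On CPM of chicken counts the sizes of the steps were alike, which the same 2-fold limit on both partly builds in. The fold of iTeO over TeO had a median of 2.49 and ran from 2.02 to 6.49, and that of TeO over NCC had a median of 2.40. The iTeO step was the larger for 17 genes and the TeO step for 19. These values depend on the scaling. With TMM scaling the median fold of the 36 genes was 2.18 for iTeO over TeO and 2.37 for TeO over NCC. Rising gene 8 had the largest step from TeO to iTeO. Its levels were 21.1 and 11.7 CPM for iTeO (ES), 9.09 and 7.20 CPM for iTeO (iPS), 1.98, 1.47 and 1.96 CPM for TeO and 0.689, 0.442 and 0.812 CPM for NCC, so that its lowest iTeO library was 3.63 times its highest TeO library. For 8 of the 36 genes the lowest iTeO library was more than 2 times the highest TeO library, and for 12 the lowest TeO library was more than 2 times the highest NCC library.

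Rising gene 33 was the only rising gene without a count in NCC. iTeO (ES) held 5.89 and 15.5 CPM, iTeO (iPS) 9.86 and 5.55 CPM and TeO 5.18, 4.68 and 3.39 CPM, whereas all 3 NCC libraries were at 0. Set against 3 counts per NCC library, a mean of 0.265 CPM, TeO was at least 16.7-fold higher and iTeO at least 34.8-fold higher. Its step from TeO to iTeO was one of the smallest, and the lowest iTeO library was only 1.07 times the highest TeO library. Among the 35 rising genes with a count in NCC, the fold of TeO over NCC ran from 2.01 to 7.63 and that of iTeO over NCC from 4.18 to 17.3. Both upper ends belong to rising gene 18, which had 2, 1 and 2 counts in NCC. From its pooled counts, with no constant added, TeO was 12.1 times NCC (95% exact binomial interval 4.91 to 38.6).

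**Figure D2:**
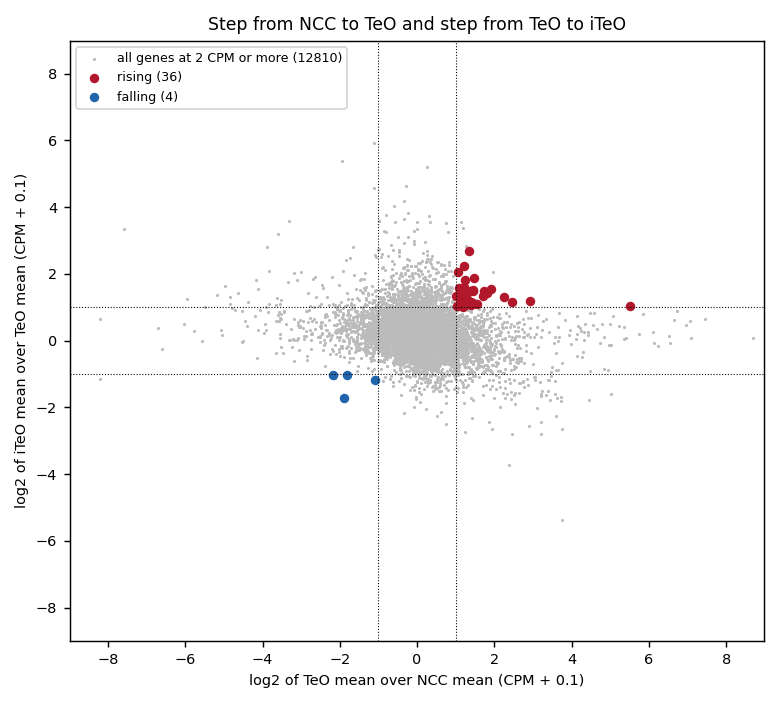
Step from TeO to iTeO against step from NCC to TeO, as log2 ratios of group means in CPM plus 0.1, for 12810 chicken genes with at least 2 CPM in their highest tissue. The dotted lines mark a 2-fold step, and the 36 rising and 4 falling genes lie past both lines in opposite corners, without being the only genes there since overlap of libraries also counted.

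Low counts limit how well the steps are known. In 13 rising genes no NCC library had more than 10 counts. By counts pooled over the libraries of a tissue, the 95% exact binomial interval lay above 2 for 20 rising genes in the ratio of iTeO to TeO and for 12 in that of TeO to NCC. These counts also chose the genes, so the intervals describe how precisely each step was counted. Such intervals cover the error of counting alone and leave out the spread between libraries. PCR copies of a molecule are counted as separate reads, so the intervals may be too narrow even for that error. Close to the limit, the last gene inside had a smaller fold of 2.01 and the first gene outside 1.99, and 10 more genes had both steps over 1.9-fold without both being over 2. Another 12 genes met the limits on fold and level with overlapping libraries. The lowest iTeO mean inside was 2.30 CPM, and 11 genes were outside by level alone, with at most 1.97 CPM in their highest tissue.

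The 4 falling genes were all in the low range of iTeO. ENSGALG00000035854, falling gene 1, held 0.855 and 0.204 CPM for iTeO (ES), 0.640 and 0.472 CPM for iTeO (iPS), 1.73, 2.02 and 2.32 CPM for TeO, and 5.34, 9.38 and 8.48 CPM for NCC. Its highest TeO library was thus below its lowest NCC library, and every iTeO library was below every TeO library. The means were 0.543 ± 0.275 CPM in iTeO (SD, n = 4), 2.02 ± 0.295 in TeO (SD, n = 3) and 7.73 ± 2.12 in NCC (SD, n = 3). NCC stood 12.2-fold above iTeO, the widest span of the falling genes.

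ENSGALG00000016828, falling gene 3, held 3.80 and 2.86 CPM for iTeO (ES), 3.07 and 2.24 CPM for iTeO (iPS), 5.44, 6.52 and 6.68 CPM for TeO and 20.9, 23.5 and 21.7 CPM for NCC. Most of its span lay between NCC and TeO, with a 3.51-fold step there against a 2.04-fold step from TeO to iTeO. Falling gene 4 was of the same kind, with 30.0 to 37.7 CPM in NCC, 6.90 to 8.17 in TeO and 2.28 to 4.48 in iTeO. Falling gene 2 was the lowest of the group in NCC, with 2.32 to 3.80 CPM there, 1.12 to 1.84 in TeO and 0.409 to 0.768 in iTeO. Its iTeO values rest on 4 to 6 counts per library. The last gene inside had a smaller fold of 2.04, 0 genes outside had both steps over 1.9-fold, and 2 genes met the limits on fold and level with overlapping libraries.

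The number of falling genes was small beside the genes that could have joined them. Of 12810 chicken genes with at least 2 CPM in their highest tissue, 885 were over 2-fold higher in TeO than in NCC without overlap. Of these, 36 (4.07%) were higher still in iTeO by the same limits and 85 (9.6%) were lower in iTeO than in TeO. The other 764 (86.3%) passed neither limit between iTeO and TeO. In the other direction, 743 genes were over 2-fold higher in NCC than in TeO without overlap. Of these, 4 (0.538%) were lower still in iTeO, 74 (9.96%) were higher in iTeO than in TeO, and 665 passed neither limit. Over all 12810 genes, 5.42% were higher in iTeO than in TeO by these limits and 1.41% were lower. The shares of rising and falling genes, 4.07% and 0.538%, were thus both below those over all genes. Both steps share the TeO libraries, so an error in TeO that widens the step from NCC narrows the step on to iTeO. A lower share is thus partly built into the choice, and the difference was not tested. The scaling bears on the counts of rising and falling genes, since TMM scaling gave 19 rising and 7 falling genes.

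**Figure D3:**
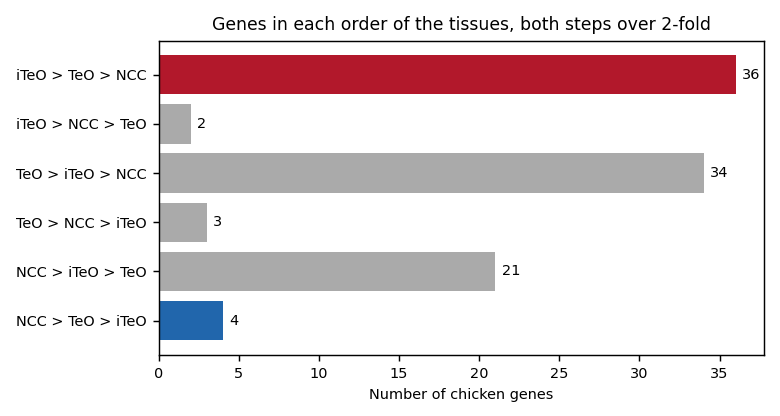
Number of chicken genes in each of the possible orders of iTeO, TeO and NCC when both steps were over 2-fold and no libraries overlapped at either step. On CPM of chicken counts, the order iTeO > TeO > NCC held 36 genes and NCC > TeO > iTeO held 4, beside 34 genes with TeO highest and iTeO between.

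Across all possible orders of the tissues, with both steps over 2-fold and no overlap, the rising order held 36 genes. The order with TeO highest and iTeO between TeO and NCC held 34, and that with NCC highest and iTeO between held 21. The orders in which NCC lay between the tecta held few genes, 2 with iTeO highest and 3 with TeO highest. The falling order held 4. The same limits were applied to each order, but the counts rest on the same libraries and were not tested. They also depend on the scaling. With TMM scaling the rising order held 19 genes and the falling order 7, and the other orders were not recounted.

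The quasi-likelihood test of edgeR was run over the 13999 chicken genes left by a filter that removes weakly counted genes, and it removed none of the 40. By an adjusted p-value under 0.05 and a log2 fold change above 1, 4.04% of all genes tested were called higher in iTeO than in TeO and 6.86% higher in TeO than in NCC. Of the 36 rising genes, 24 were called in the first comparison, 33 in the second and 21 in both. All 4 falling genes were called lower in iTeO than in TeO and lower in TeO than in NCC, beside 2.75% and 5.93% of all genes tested. These comparisons chose the genes, so the counts add no evidence for the pattern.

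Whether a library follows the pattern can be looked at without having chosen the genes on it. The rule was applied to 9 libraries at a time, and the chosen genes were then read in the library left out. Without a given iTeO library, between 37 and 43 rising genes were chosen. The iTeO library left out lay above all TeO libraries for 39 of 43 genes in iTeO (ES) replicate 1, 36 of 37 in iTeO (ES) replicate 2, 37 of 41 in iTeO (iPS) replicate 1 and 38 of 41 in iTeO (iPS) replicate 2. It exceeded 2 times the TeO mean for fewer genes, 25, 23, 25 and 31 in the same order. The median ratio to the TeO mean was between 2.16 and 2.30 in these 4 libraries, and the lowest ratio was 0.541, in iTeO (ES) replicate 1.

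As a background for these shares, the 885 genes with a step from NCC to TeO were read in the same way. An iTeO library lay above all TeO libraries for 34.4% to 36.4% of them and exceeded 2 times the TeO mean for 4.41% to 7.01%. Over all 12810 genes an iTeO library lay above all TeO libraries for 53.8% to 56.4%. Such shares are on CPM of chicken counts and were not recounted with TMM scaling, which shifted the log2 step from TeO to iTeO by -0.20. Genes chosen on the other 9 libraries thus lay above TeO in the library left out in a larger share than these genes at large. Fewer of the chosen genes exceeded 2 times the TeO mean than lay above all TeO libraries. The TeO libraries they were read against had also chosen them, while the 885 genes had no condition on iTeO. A larger share is thus partly built into the choice and adds no evidence for the pattern. These shares were not tested, since the choices overlap in their genes and share libraries.

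**Figure D4:**
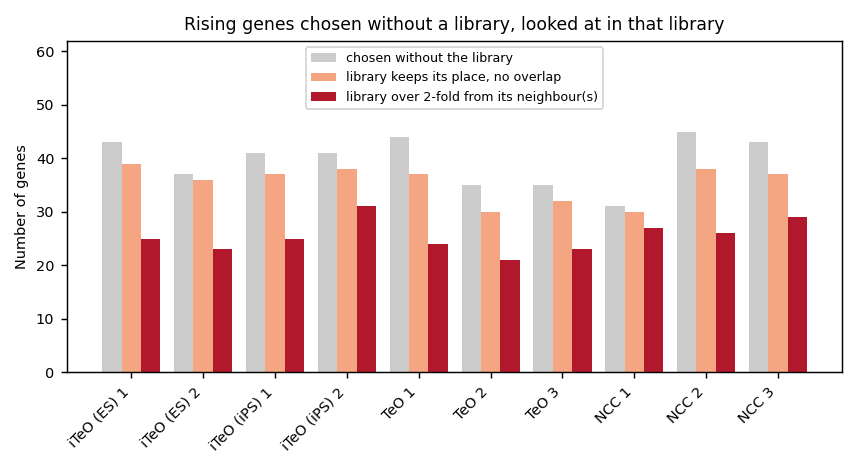
Rising genes chosen by the rule without a library, and how many of them kept their place in that library, for each of the 10 libraries. Grey bars give the genes chosen and light bars those in which the library did not overlap with the neighbouring tissues. Dark bars give those in which it stood over 2-fold from the means of these tissues, whether or not it overlapped with them. By number of genes, the dark bars ran from 21 of 35 chosen for TeO replicate 2 to 31 of 41 for iTeO (iPS) replicate 2. As a share of the genes chosen, the lowest was 24 of 44 for TeO replicate 1 and the highest 27 of 31 for NCC replicate 1.

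The natural libraries were read in the same way. TeO libraries, which had to lie both above NCC and below iTeO, did so without overlap for 37 of 44, 30 of 35 and 32 of 35 genes in replicates 1, 2 and 3, beside 13.9% to 14.6% of the 12810 genes. NCC libraries lay below all TeO libraries for 30 of 31, 38 of 45 and 37 of 43 genes. They did so for 39.4% to 40.6% of the 12810 genes and for 27.1% to 34.3% of the 694 genes that were over 2-fold higher in iTeO than in TeO without overlap. The other libraries had already placed the chosen genes in this order, while the genes set beside them did not have to meet the full rule. Larger shares are thus partly built into the choice here too and add no evidence for the pattern. Choosing the genes with iTeO (iPS) as the only iTeO libraries gave 43 rising genes, of which 37 and 41 lay above all TeO libraries in iTeO (ES) replicates 1 and 2. Choosing them with iTeO (ES) gave 52, of which 46 and 47 did so in iTeO (iPS) replicates 1 and 2. The TeO and NCC libraries were the same in both choices, so a large share in the other kind of graft is partly built in. Over the 12810 genes, on CPM of chicken counts, an iTeO library lay above all TeO libraries for 53.8% to 56.4%. For the 885 genes with a step from NCC to TeO the share was 34.4% to 36.4%. With falling genes the held-out libraries were less uniform. Without iTeO (ES) replicate 1, 7 falling genes were chosen, of which 4 kept their place in that library.

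Libraries differed in features that the tissue labels do not give. The share of counts on human genes was 0.371% for iTeO (ES) replicate 1 and 0.299% for iTeO (iPS) replicate 1, compared with 0.129% and 0.124% for replicate 2 of each kind and a range of 0.123% to 0.137% over the natural tissues. The rule itself placed the rising genes above TeO in every iTeO library, so only the size of the step can be set beside this share. The mean of the second replicates was over 2 times the TeO mean for 33 genes, with a median of 2.34-fold, and that of the first replicates for 31 genes, with a median of 2.47-fold.

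The libraries also split by 21 chicken genes that were nearly absent from one TeO library (no more than 3 counts) and above 5 CPM in a different one. Their summed level was at least 396 CPM in iTeO (ES), in replicates 2 and 3 of TeO and in replicate 3 of NCC. It was at most 3.19 CPM in the other 5 libraries, and none of the 40 genes was one of the 21. The order of the tissues within either side was fixed by the rule. Among the 5 libraries that held the 21 genes, both steps were over 2-fold for 28 rising genes, and among the other 5 for 24. Of the 4 falling genes, 2 had both steps over 2-fold on each side.

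The 4 iTeO libraries were not equally high. iTeO (ES) replicate 1 was the highest iTeO library for 17 of the 36 rising genes and the lowest for 9. It was the highest for 30.9% of all genes with at least 2 CPM in their highest tissue. The rule chose the rising genes on these values, so a difference from genes at large may be partly built in. The difference was not tested. In 22 of the 36 genes the highest iTeO library was less than 2 times the lowest, with a median ratio of 1.79 and a range from 1.12 to 3.88. Rising gene 34 was the most even, with 12.7, 13.3, 14.2 and 13.1 CPM in the 4 iTeO libraries against 5.88 to 7.57 in TeO. Its steps were close to the limit, at 2.04-fold from TeO to iTeO and 2.05-fold from NCC to TeO. It met the rule in 5 of the 10 choices without 1 library and under 1 of the 4 other scalings.

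Rising gene 6 was the least even. It had 224 CPM in iTeO (ES) replicate 1 and 57.8, 73.8 and 84.2 CPM in the other iTeO libraries, against 32.5 to 49.3 in TeO and 10.5 to 12.5 in NCC. All iTeO libraries were above all TeO libraries, but the fold of iTeO over TeO was 2.69 with iTeO (ES) replicate 1 and 1.76 without it, so that the gene left the group. Rising genes 32 and 35 also left it without that library. The other 33 stayed over 2 times the TeO mean. Losses were not particular to that library. When another library was left out, between 29 (without TeO replicate 2) and 36 (without iTeO (iPS) replicate 2) of the 36 met the rule. In rising gene 21 iTeO (ES) replicate 1 was the low library, with 57.4 CPM against 110, 114 and 116 CPM in the other iTeO libraries.

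Some rising genes stood close to each other in the deposited table. Rising genes 7, 14 and 26 lay within 5 rows, and no other rising gene lay within 5 rows of another. All 3 were highest in iTeO (ES) replicate 1, with 12.5, 9.02 and 5.03 CPM. Their levels in the other iTeO libraries were 6.85 to 8.32, 3.54 to 5.62 and 3.78 to 4.23 CPM, and in TeO 2.32 to 3.40, 0.918 to 1.34 and 1.25 to 2.11 CPM. Whether they overlap or share sequence was not tested.

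The rule did not compare iTeO (ES) with iTeO (iPS). This contrast asks whether the level of the genes differed with the kind of graft. The iTeO mean was taken over both kinds, so a gene could pass through high values in a single kind. With iTeO (ES) as the only iTeO libraries, 33 of the 36 rising genes met the rule, and with iTeO (iPS) 29. How far the choice bears on a lean towards either kind was not tested. In a fit that kept both kinds of iTeO apart beside the natural tissues, none of the 40 genes was called, and the lowest adjusted p-value was 0.281 among rising genes and 0.469 among falling genes (quasi-likelihood test of edgeR, adjusted over all genes tested). Of all 13999 genes tested, 0.0143% were called. Before adjustment, 5 rising genes had a p-value under 0.05, all with a higher estimate in iTeO (ES), and 1 falling gene, with a higher estimate in iTeO (iPS). The 5 genes are 13.9% of the rising genes, beside 9.18% of all genes tested in either direction, 4.91% with iTeO (ES) higher and 4.27% with iTeO (iPS) higher. DESeq2 called 40 of the 13999 genes tested and none of the 40 genes described here. With so few calls over all genes, a lack of calls among these genes says little about them.

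The largest difference was in rising gene 13, at 8.83 and 7.16 CPM for iTeO (ES) and 3.33 and 4.13 CPM for iTeO (iPS). Both iTeO (ES) libraries were higher, by a log2 fold change of 1.08 (standard error 0.26, 95% interval 0.52 to 1.64, adjusted p = 0.281 by edgeR). All 4 libraries were nonetheless above TeO, which had 1.55 to 2.11 CPM. Over the 36 rising genes the log2 fold change of iTeO (ES) over iTeO (iPS) had a median of 0.17 and ran from -0.47 to 1.08, and 24 genes had a higher estimate in iTeO (ES). Over all 13999 genes tested the median was 0.01, and 7245 genes had a higher estimate in iTeO (ES). Among the rising genes the median absolute difference was 0.27 and the median standard error 0.29. Over all genes tested these were 0.14 and 0.18, so the rising genes were also less precisely measured. Both iTeO (ES) libraries lay above both iTeO (iPS) libraries for 8 rising genes, and the reverse held for 4, while 18.2% and 14.4% of all genes tested did so.

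**Figure D5:**
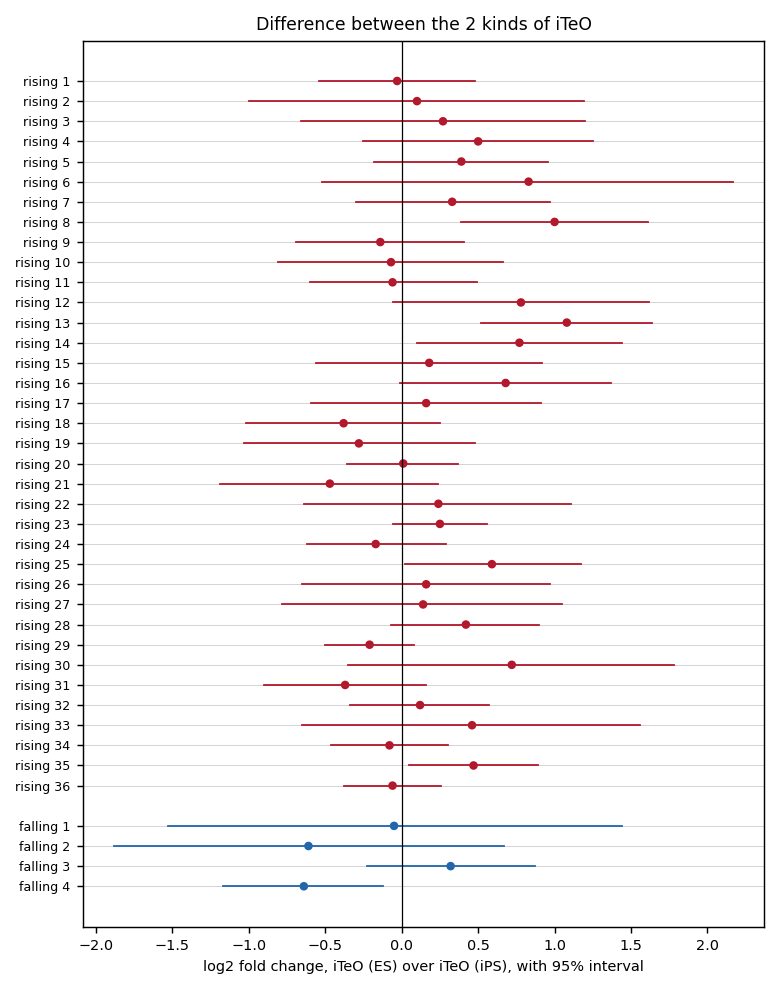
Log2 fold change of iTeO (ES) over iTeO (iPS) for the 36 rising and 4 falling genes, with points for the estimates of the quasi-likelihood fit of edgeR and bars for unadjusted 95% intervals. The estimates of rising genes ran from -0.47 to 1.08, and the 5 rising genes whose bars lie above 0 did not pass the adjustment over all genes tested.

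A difference between the kinds of graft cannot be told apart from the split by the 21 genes within iTeO, since both iTeO (ES) libraries held them and both iTeO (iPS) libraries did not. The intervals were wide at 2 libraries per kind. For rising gene 1 the log2 difference was -0.03 (standard error 0.24), and for rising gene 6 it was 0.83 with an interval from -0.52 to 2.17. Without iTeO (ES) replicate 2, which leaves replicate 1 as the only iTeO (ES) library and assumes that it varies like the other groups, 3 rising genes were called, numbers 6, 8 and 12, all higher in iTeO (ES), beside 96 of the 13918 genes tested in that fit (0.690%). The log2 fold change was then 1.36 for gene 8 and 1.30 for gene 12 (adjusted p = 0.0134 and 0.00141 by edgeR), and larger for gene 6 (adjusted p = 0.00141). Without iTeO (ES) replicate 1, none of the 40 genes was called, beside 64 of 13911 genes tested (0.460%).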

How the data were processed

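Libraries were made by the authors from total RNA with a stranded total RNA kit and sequenced as single-end reads. After trimming (Trimmomatic), the authors mapped reads with STAR 2.7.1a against the joined genomes of human (GRCh38) and chicken (galgal5), kept unique hits and assigned them to genes by featureCounts. The deposited values are raw counts for 58302 human and 24881 chicken genes, without normalization. The strand setting of the counting is not given in the sources used here, so a gene and an antisense partner may share reads. The members and lists were chosen with earlier results of these data known.

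CPM were computed here from chicken counts. Tests across genes used edgeR 4.0.16 (R 4.3.3, TMM, filterByExpr by tissue, robust quasi-likelihood fit, Benjamini-Hochberg adjustment), and DESeq2 1.42.0 was an alternative. A standard error was obtained from each log2 fold change and its F statistic. The procedure was tested on simulated counts. Alternatives were 4 other scalings, other limits on level, fold and overlap, another added constant, other filters, fits of the compared groups alone, the replicate number as a block and each library left out. The named genes are, in each direction, the first 2 by the smaller log2 step among genes with at least 5 CPM in the highest tissue. The marker lists could not be used without symbols. Replicate libraries were not copies of each other, with a chi-square statistic of 3.97 to 13.4 per degree of freedom.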

Additional observations from a re-analysis of the deposited data

Results flagged for a closer look

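In 3 of the 40 genes (7.50%) a single iTeO library lay far from the other 3 by Dixon's test at its 95% critical value, which about 5% of groups pass by chance. Of the 12810 genes with at least 2 CPM in their highest tissue, 5.78% passed it, so the share among the 40 is near that of genes at large. In each of the 3 genes the library was iTeO (ES) replicate 1, which was the library concerned in 2.30% of the 12810 genes. The rule chose the 40 genes on these values, and the difference was not tested. Rising gene 6 had 224 CPM in iTeO (ES) replicate 1 against 57.8 to 84.2 CPM in the other iTeO libraries. Rising gene 12 had 79.5 CPM against 29.7 to 34.3 CPM. Rising gene 21 had 57.4 CPM, below the 110 to 116 CPM of the others.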

How the results depend on the processing

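The number of rising genes (36) was 19 with TMM scaling and 20 with the size factors of DESeq2, 10 with 1 CPM added, 222 with steps over 1.5-fold and 0 with steps over 3-fold. Without 1 library in turn it was between 31 and 45, and 18 of the 36 genes were kept in every such choice. Under all 4 scalings 19 were kept, and 13 held in both. The number of falling genes (4) was 7 with TMM scaling and with the size factors of DESeq2, 0 with 1 CPM added, 23 with steps over 1.5-fold and 1 with steps over 3-fold. It was 7 with iTeO (ES) alone, with iTeO (iPS) alone and, in a choice made after seeing the data, with the second replicates of iTeO alone. Without 1 library in turn it was between 2 (without TeO replicate 2) and 7 (without iTeO (ES) replicate 1), and 1 of the 4 genes was kept in every such choice. Each step of the named genes was recomputed under other scalings and without each library. Of 112 such values, 28 could not move because the step does not use the library left out. The other 84 moved by less than the spread between replicates, taken as the larger SD of the compared tissues on the log2 scale. Leaving out 1 library can hardly shift a mean by more than that SD. For those values the outcome was thus largely fixed in advance and says little about stability.

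A stricter filter, 10 or more counts in all libraries, left fewer genes to test, and 577 genes in place of 950 were called between iTeO and TeO. Without 1 library in turn the number was between 862 and 972, and between TeO and NCC (1791) it was between 1684 and 1827. Between iTeO (ES) and iTeO (iPS), 2 genes were called, against 40 with DESeq2 and 20 when only the compared groups were fitted. Without 1 library in turn the number was between 0 and 96, and for the 40 genes described here between 0 and 3. Under a replicate block, 1 gene was called between the kinds of iTeO, and 1 with the numbers of iTeO (iPS) crossed, a pairing added after seeing the data since the correlation of deviations between same-numbered libraries was -0.111. With the block 869 genes were called between iTeO and TeO and 1758 between TeO and NCC. A TeO and an NCC library of equal replicate number had correlations of 0.327, -0.235 and 0.336 for replicates 1, 2 and 3. Between TeO and NCC libraries of unlike number they ran from -0.514 to 0.326. Whether libraries of equal number share more than the number was not tested. The cause of the shifts in the number of called genes was not tested either.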
